A study of Rattus norvegicus with 6 samples.

Results

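The genes described here encode the apparatus by which the kidney's proximal tubule takes filtered proteins out of the urine: Lrp2 (megalin), Cubn (cubilin), Amn (amnionless), Dab2, Clcn5, Fcgrt and Ocrl. They were chosen by name, with earlier results of these data known. Every non-control probe whose RefSeq accession maps to 1 of these rat symbols was taken. All 7 genes were on the array, with 11 probes of the 61526 used: 2 each for Lrp2, Dab2, Clcn5 and Ocrl, and 1 each for Cubn, Amn and Fcgrt. Total RNA of the renal cortex was measured in 6 male Sprague-Dawley (Crl:CD(SD)) rats, bought at 5 weeks of age and kept on a basal diet, with 1 single-colour Agilent array per animal. In the treated group, 3 rats were dosed over 4 weeks with o-anthranilic acid (1000 mg/kg/day), an aromatic acid that mammals also form from tryptophan. The vehicle group was 3 rats dosed with corn oil over the same 4 weeks. The cortex is a mixture of glomeruli, tubules, vessels and interstitial cells, and no cell type was isolated.

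Megalin and cubilin are large receptors of the brush border that bind albumin, hormones and the carrier proteins of vitamins. Amnionless carries cubilin to the cell surface, and the adaptor Dab2 couples the receptors to clathrin. The vesicles then fuse with endosomes, where the chloride-proton exchanger ClC-5 (Clcn5) helps acidification and the phosphatase OCRL (Ocrl) removes a phosphate from inositol lipids so that receptors can recycle. In humans, loss of ClC-5 causes Dent disease and loss of OCRL causes Lowe syndrome, both with protein of low molecular weight in the urine. The neonatal Fc receptor (Fcgrt), which pairs with beta-2-microglobulin, binds albumin and immunoglobulin G in acid endosomes and spares them from breakdown.

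The comparison asked whether these transcripts differed between o-anthranilic acid and vehicle. None of the 7 genes passed the test, and their estimated fold changes (o-anthranilic acid over vehicle) lay between 0.901 for Amn and 1.08 for Clcn5. Across the 7 genes, each represented by its brightest probe, the 95% intervals reached down to 0.801-fold and up to 1.29-fold. Intervals of second probes, fitted singly, went further. Probe 2 of Lrp2 reached down to 0.771-fold, and probe 2 of Ocrl ran from 0.700-fold to 1.79-fold. By limma with Benjamini-Hochberg adjustment over all features (threshold 0.05), 0 of 30709 features on the array passed, which is 0%, and the lowest adjusted p was 0.0813. An unadjusted p under 0.05 was reached by 0 of the 7 genes, against 2548 features or 8.3% of all. With each of 41551 probes as its own feature, 0% passed as well. The log2 fold change was above 0 for 5 of the 7 genes (Lrp2, Cubn, Dab2, Clcn5 and Ocrl), where it was above 0 for 48.1% of all features, and below 0 for Amn and Fcgrt. The median over the 7 was 0.08, against -0.01 over all features. In bulk tissue, fewer cells of a type and less RNA per cell cannot be told apart.

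A level below is the log2 signal relative to the 75th percentile of all non-control probes on the same array, so 0 is that percentile. Levels of different probes are not compared, because probes differ in how they bind and label. 10 of the 11 probes were well above background on all 6 arrays, and all 7 genes had at least 1 such probe. No spot was saturated on any array. Treated replicate 2 was the only array on its slide, with a median local background of 73 intensity units, against 32 to 39 on the other 5 arrays. Results on the slide that held both groups are therefore given below as well.

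Megalin was measured by 2 probes of Lrp2 (NM_030827). Probe 1 stood at 6.55, 6.42 and 6.45 on the o-anthranilic acid arrays, against 6.50, 6.53 and 6.33 on the vehicle arrays. Those values come from processed signals of 83722 to 87433 intensity units in treated rats and 70082 to 92843 in vehicle rats. The treated values lay inside the vehicle range except for replicate 1, which was slightly above it. The log2 fold change was 0.02 ± 0.09 (SE, n = 3 per group), with a limma adjusted p of 0.973 and a 95% interval from -0.19 to 0.23.

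Probe 2 of Lrp2 stood at 5.82, 5.85 and 5.66 in treated rats, against 5.95, 5.99 and 5.66 in vehicle rats. On this probe the treated mean was the lower, with vehicle replicate 3 as low as treated replicate 3 and a log2 fold change of -0.09 ± 0.12. When each probe was tested as its own feature the adjusted p was 0.850, and the 95% interval ran from -0.37 to 0.19. The sign of the megalin difference therefore depended on the probe, and both intervals included 0. Probe 1 also changed sign when 1 array was left out, with a log2 fold change of -0.02 without treated replicate 1 and -0.04 without vehicle replicate 3.

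Cubn (NM_053332), the cubilin gene, stood at 5.43, 5.43 and 5.47 on the treated arrays, against 5.31, 5.58 and 5.19 on the vehicle arrays. The treated rats were close together and all lay within the wider vehicle range. The means were 5.44 ± 0.02 in treated and 5.36 ± 0.20 in vehicle rats (SD, n = 3 each). The log2 fold change was 0.08 ± 0.11 (SE), with an adjusted p of 0.868 and a 95% interval from -0.19 to 0.36. Without vehicle replicate 2 it was 0.19 and without vehicle replicate 3 it was 0.00, so the vehicle arrays decided its size.

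Amn (NM_001108061), whose product anchors cubilin in the membrane, was the member with the smallest p. It stood at 5.66, 5.74 and 5.64 in treated rats, against 5.80, 5.85 and 5.85 in vehicle rats. All 3 treated values were below all 3 vehicle values, and Amn was the 1 gene of the 7 whose groups did not overlap. A share of 1 in 7 is near the background, since the groups did not overlap for 14.7% of all features, 8.31% with the treated group lower. The log2 fold change was -0.15 ± 0.07 (SE, n = 3 per group), which is 0.901-fold, with an unadjusted p of 0.0759 and a limma adjusted p of 0.634. The 95% interval ran from -0.32 to 0.02. With normexp background correction the log2 fold change was -0.08 (adjusted p 0.842). A variance model with a trend and robust fit gave Amn an unadjusted p of 0.0392 and an adjusted p of 0.573 at the same log2 fold change, the single case among the 19 alternatives in which a member had an unadjusted p under 0.05. With 1 array left out at a time it lay between -0.18 and -0.13.

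**Figure D1:**
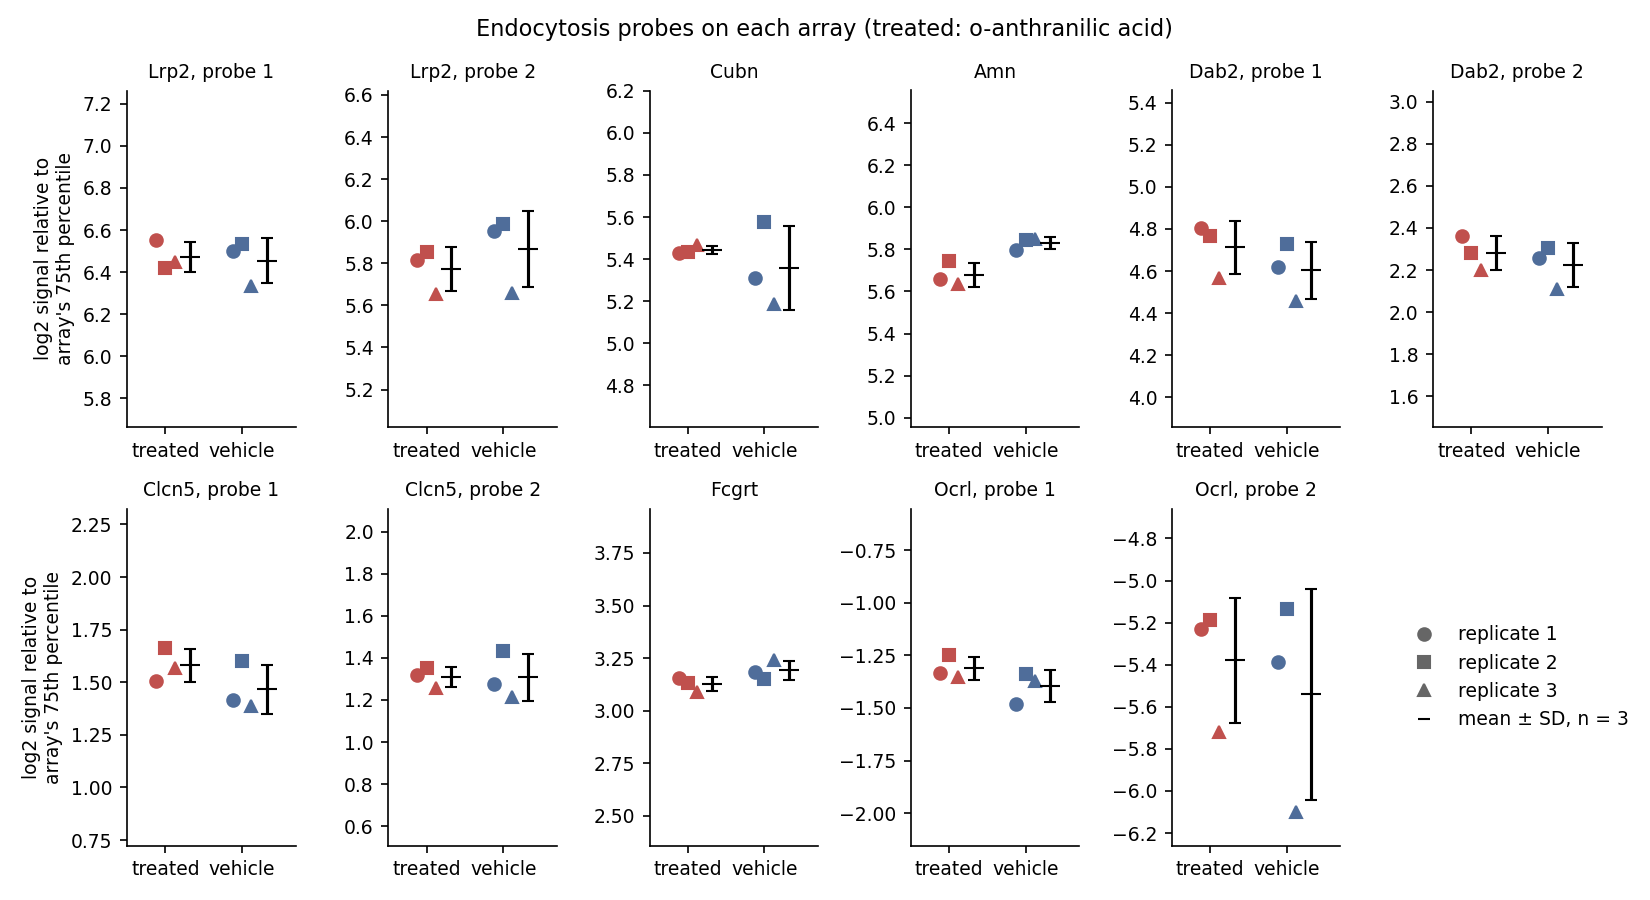
Log2 signal relative to the array's 75th percentile (vertical axis, the same span of log2 units in every panel) for the 11 endocytosis probes on each array, with o-anthranilic acid on the left and vehicle on the right of each panel, and black bars for mean ± SD (n = 3). The 2 groups overlap for every probe except that of Amn, which stands at 5.64 to 5.74 in treated and 5.80 to 5.85 in vehicle rats, and probe 2 of Ocrl has the widest spread.

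Dab2 (NM_024159), the clathrin adaptor of the receptors, is also expressed in macrophages. Its probe 1 stood at 4.80, 4.77 and 4.57 on the treated arrays, against 4.62, 4.73 and 4.46 on the vehicle arrays. Probe 2 stood at 2.36, 2.28 and 2.20 in treated rats, against 2.26, 2.31 and 2.11 in vehicle rats. On both probes replicate 3 was the lowest of its group, and the groups overlapped. The log2 fold changes were 0.11 ± 0.11 for probe 1 (adjusted p 0.808, 95% interval from -0.15 to 0.37) and 0.06 ± 0.09 for probe 2 (adjusted p 0.884 in the fit of every probe). Without vehicle replicate 3 they were 0.04 and 0.00, and without treated replicate 3 probe 1 stood at 0.18.

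Of the endosomal members, Clcn5 (NM_017106) had the largest log2 fold change above 0. Probe 1 stood at 1.51, 1.66 and 1.57 in treated rats, against 1.41, 1.60 and 1.39 in vehicle rats. Vehicle replicate 2 lay among the treated values and the other vehicle arrays below them. With all arrays its log2 fold change was 0.11 ± 0.09 (SE), with an adjusted p of 0.767 and a 95% interval from -0.11 to 0.34, and it was 0.18 without vehicle replicate 2 and 0.07 without either treated replicate 2 or vehicle replicate 3. Probe 2 stood at 1.32, 1.35 and 1.26 in treated rats, against 1.28, 1.43 and 1.21 in vehicle rats. Here the treated values lay inside the vehicle range, with a log2 fold change of 0.00 ± 0.08 and an adjusted p of 0.998 in the fit of every probe.

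Ocrl (NM_001108256) had 1 probe well above background on all arrays. It stood at -1.33, -1.25 and -1.36 in treated rats, against -1.48, -1.34 and -1.37 in vehicle rats. Treated replicates 1 and 2 were above all vehicle arrays, and treated replicate 3 was among them. Its log2 fold change was 0.08 ± 0.08 (SE), with an adjusted p of 0.790 and a 95% interval from -0.10 to 0.27. It was 0.04 without vehicle replicate 1 and 0.05 without treated replicate 2.

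Probe 2 of Ocrl was well above background on 1 treated and 2 vehicle arrays, with processed signals of 18.4 to 26.9 intensity units in treated rats and 12.7 to 28.5 in vehicle rats. Its levels were -5.23, -5.19 and -5.72 in treated rats, against -5.39, -5.14 and -6.10 in vehicle rats. On the other 3 arrays these levels were not well above background and are uncertain. The 95% interval of its log2 fold change of 0.16 ran from -0.51 to 0.84, wider than that of the other 10 probes, and without vehicle replicate 3 the value was -0.12.

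Fcgrt (NM_033351), the neonatal Fc receptor, stood at 3.16, 3.13 and 3.09 on the treated arrays, against 3.18, 3.15 and 3.24 on the vehicle arrays. Treated replicates 2 and 3 were below all vehicle arrays, while treated replicate 1 was just above vehicle replicate 2. For Fcgrt the log2 fold change was -0.07 ± 0.07 (SE), with an adjusted p of 0.819 and a 95% interval from -0.23 to 0.10. This was the smallest standard error among the 7 genes, which ranged from 0.07 to 0.11, against a median of 0.11 over all features. Leaving out 1 array moved the log2 fold change between -0.09 and -0.04.

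**Figure D2:**
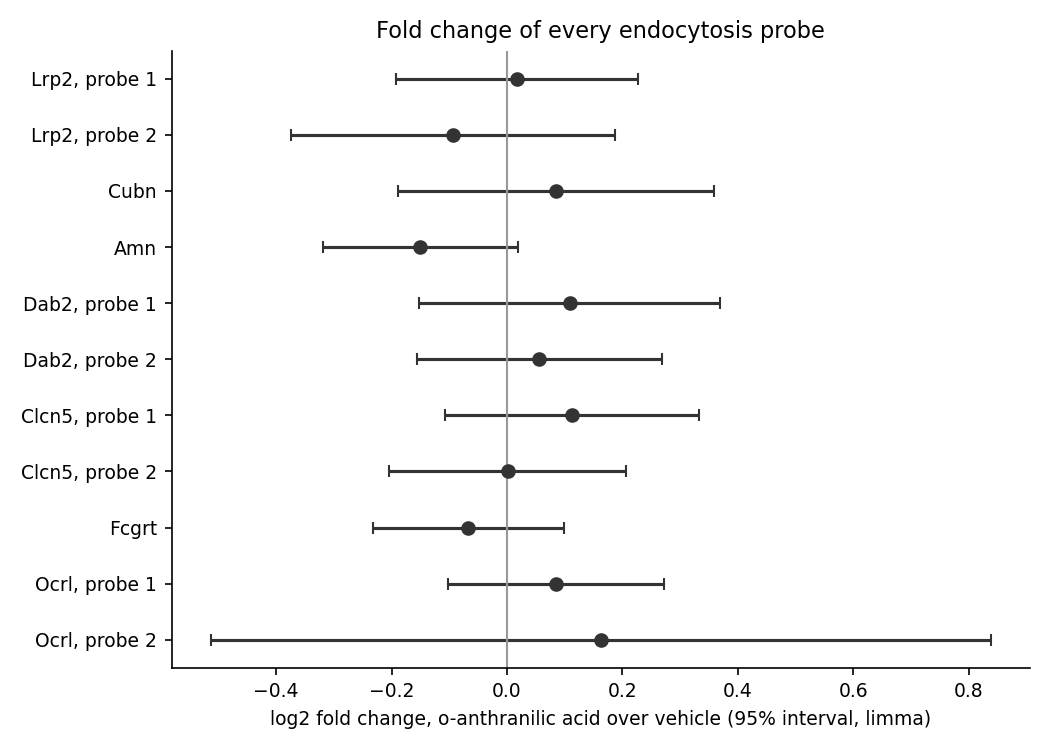
Log2 fold change of o-anthranilic acid over vehicle (horizontal axis) for each of the 11 endocytosis probes, as points with 95% intervals from limma fitted on every probe (n = 3 per group). All 11 intervals include 0, and that of Amn comes closest to leaving it out, ending at 0.02.

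The members also varied within each group. Over the 10 probes above background on all arrays, vehicle replicate 3 was the lowest vehicle array for 7, where it was the lowest vehicle array for 32.7% of all tested probes. Treated replicate 3 was the lowest treated array for 7 of the 10, against 35.4% of all tested probes. Relative to the vehicle mean, the median of these 10 probes was 0.05, 0.05 and -0.03 on the treated arrays, against -0.02, 0.10 and -0.10 on the vehicle arrays. The spread among the vehicle rats was thus wider than any difference of the group medians, while the median over all tested probes lay between -0.013 and 0.0084 of the vehicle mean on the 6 arrays. Probes of 1 gene share their target and are not separate observations.

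**Figure D3:**
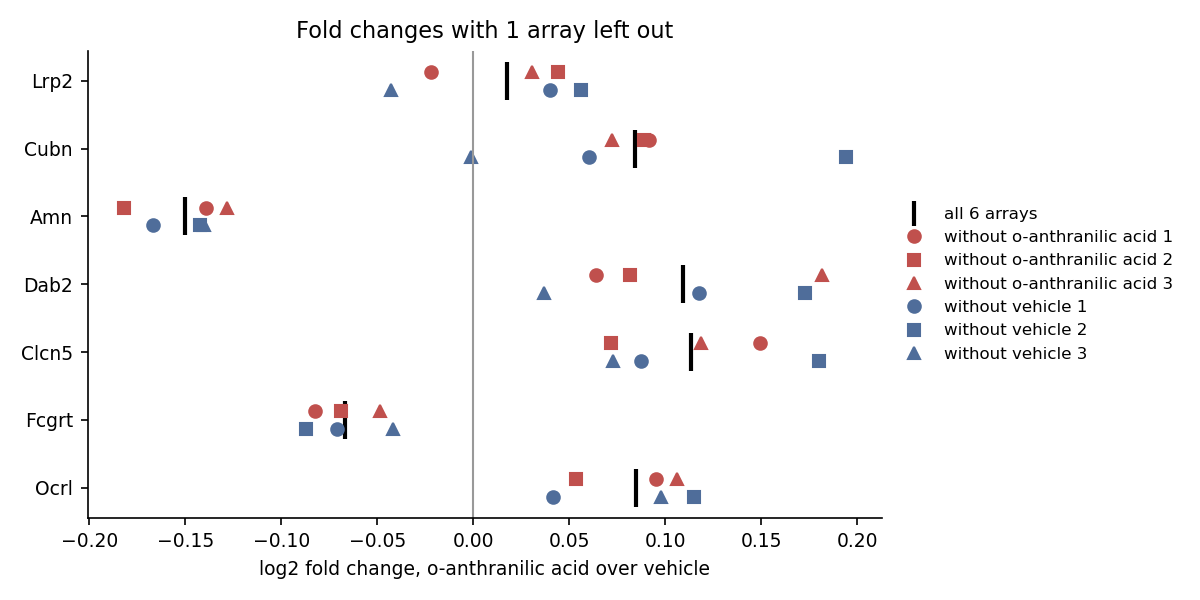
Log2 fold change of o-anthranilic acid over vehicle for the 7 genes (horizontal axis), with all 6 arrays as a black tick and with each array left out as a coloured symbol. Amn and Fcgrt stay below 0 and Dab2, Clcn5 and Ocrl above 0 in every case, while Lrp2 runs from -0.04 to 0.06 and Cubn from 0.00 to 0.19.

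On the slide that held all vehicle arrays and treated replicates 1 and 3, the log2 fold changes were 0.04 for Lrp2, 0.09 for Cubn, -0.18 for Amn, 0.08 for Dab2, 0.07 for Clcn5, -0.07 for Fcgrt and 0.05 for Ocrl. The smallest adjusted p of the 7 on that slide was 0.696, for Amn, and each kept its sign.

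Partners that act as a pair were set against each other within each array, as the difference of their log2 signals relative to the vehicle mean. These 4 pairs were chosen after the values were seen. For cubilin and amnionless (Cubn minus Amn) the difference was 0.24, 0.16 and 0.30 in treated rats, against -0.01, 0.20 and -0.19 in vehicle rats. The treated mean was higher by 0.23, but vehicle replicate 2 lay within the treated range, and the exact two-sided permutation test gave p = 0.2 (0.4 after Benjamini-Hochberg adjustment over the 4 pairs), where the smallest p that 3 against 3 allows is 0.1.

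The pairs Cubn minus Lrp2, Lrp2 minus its chaperone Lrpap1, and Fcgrt minus its partner B2m (beta-2-microglobulin) had differences of 0.07, -0.13 and 0.11 between treated and vehicle rats. Their exact permutation p-values were 0.6, 0.3 and 0.2, or 0.6, 0.4 and 0.4 after adjustment, and the groups overlapped in each.

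The rest of the uptake route was followed through 7 lists with 116 genes in all, of which 102 were tested. None of the 102 passed by limma. An unadjusted p under 0.05 was reached by 9, or 8.82%, against the 8.3% of all features, 1 with a higher and 8 with a lower treated mean. The shares were 0.98% higher and 7.84% lower, where all features had 3.46% and 4.84%.

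Among 15 tested genes of the clathrin coat and apical adaptors, 9 had log2 fold changes above 0 and the median was 0.01. Synj1, a lipid phosphatase that helps uncoat clathrin vesicles, stood at 0.16 ± 0.09 (SE) and Epn1, an adaptor that bends the membrane, at 0.13 ± 0.07, with adjusted p of 0.665 and 0.675. For both, the 3 treated values lay above the 3 vehicle values, as for 6.39% of all features, and no other gene of this list had groups apart.

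The chaperone and partners of the receptors (8 tested, 4 above 0) had a median log2 fold change of 0.00. Lrpap1, the chaperone that keeps megalin from binding ligands on its way to the surface, stood at 0.15 ± 0.09. B2m stood at -0.17 ± 0.08, at 7.61, 7.56 and 7.65 in treated rats, against 7.69, 7.84 and 7.81 in vehicle rats, so the groups did not overlap, with an adjusted p of 0.613. Fcgrt and B2m, which form 1 receptor, both had log2 fold changes below 0, but neither passed and the groups overlapped for Fcgrt. With the mean of its probes B2m was at -0.13.

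Endosome traffic (17 tested) had a median log2 fold change of -0.04 with 10 genes below 0, and the phosphoinositide enzymes with the partners of OCRL (11 tested) had one of 0.01 with 5 below 0. Vps29, a subunit of the retromer that returns receptors from endosomes, stood at -0.20 ± 0.07 with an adjusted p of 0.556. Rab11b, a GTPase of recycling endosomes, stood at -0.17 ± 0.07. In the other list the smallest p belonged to Mtm1, a lipid phosphatase, at -0.13 ± 0.09, and Pip5k1c, a kinase that makes the lipid substrate of OCRL, at 0.05 ± 0.07. The median of endosome traffic was -0.02 without treated replicate 3, -0.01 without vehicle replicate 2 and -0.07 without vehicle replicate 3. In that list the treated values lay below all vehicle values for 5 genes and above them for 1, against 8.31% and 6.39% of all features. Its mean on single arrays, relative to the vehicle mean, was -0.048, -0.060 and -0.074 in treated rats, against 0.009, 0.005 and -0.014 in vehicle rats. These means did not overlap between the groups. The shares of all features are of single genes, and no background share for list means is given. With 3 arrays against 3, an exact two-sided permutation test allows no p under 0.1.

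Of 21 tested genes of the acidification list, which holds the proton pump and chloride transporters that work alongside ClC-5, 17 had log2 fold changes below 0, with a median of -0.09. The list also held Cltrn (collectrin, at -0.18 ± 0.08), a membrane protein that helps amino acid transporters reach the surface and is not known to acidify endosomes. Without Cltrn, a step added after the values were seen, 16 of 20 were below 0 and the median was -0.08. The largest in size went the other way. Atp6v0a1, a membrane subunit of the proton pump, stood at 2.86, 2.75 and 2.75 in treated rats, against 2.47, 2.51 and 2.31 in vehicle rats. Its log2 fold change was 0.36 ± 0.09 (SE) with an adjusted p of 0.476, and 0.21 when the mean of its probes was used. Atp6v1e1, a subunit of the same pump outside the membrane, stood at -0.21 ± 0.08 (adjusted p 0.572). Without vehicle replicate 2 the median of the list was -0.05. With Cltrn kept, the treated values lay below all vehicle values for 5 genes and above them for 2, against 8.31% and 6.39% of all features. The list mean on single arrays, relative to the vehicle mean, was -0.047, -0.042 and -0.086 in treated rats, against -0.029, 0.047 and -0.018 in vehicle rats. Here too the means did not overlap between the groups, again with no background share for list means. The highest treated mean (-0.042) and the lowest vehicle mean (-0.029) were close, where the SD of the array means within groups was 0.033.

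The lysosomal list held proteases and other hydrolases that break down what was taken up, with membrane proteins and regulators of lysosomes. All 19 tested genes had a log2 fold change below 0, from -0.33 to 0.00, with a median of -0.15 against -0.01 over all features. The treated values lay below all vehicle values for 10 of the 19, against 8.31% of all features, and none passed. The 19 genes were measured on the same 6 arrays, so these counts are not of separate observations. The list was also chosen with earlier results of these data known. Ctns, which exports cystine from lysosomes, stood at -3.59, -3.52 and -3.82 in treated rats, against -3.24, -3.22 and -3.46 in vehicle rats, with a log2 fold change of -0.33 ± 0.11 (adjusted p 0.537). Scarb2, a lysosomal membrane protein, stood at -0.24 ± 0.09 (adjusted p 0.576). Ctsl, the protease cathepsin L, was at -0.20 ± 0.13 and its groups overlapped.

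On single arrays the mean of the lysosomal list, relative to the vehicle mean, was -0.19, -0.14 and -0.14 in treated rats, against -0.01, 0.03 and -0.02 in vehicle rats. The groups did not overlap, and no background share for list means is given here either. The median of the list lay between -0.17 and -0.13 with 1 array left out. Macrophages, which hold many lysosomes, had 7 of 9 markers tested, all 7 with a log2 fold change below 0 and a median of -0.18. The marker means on single arrays were -0.48, 0.01 and -0.19 in treated rats, against -0.03, 0.02 and 0.01 in vehicle rats. The part of these cells in the lysosomal values was not tested.

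**Figure D4:**
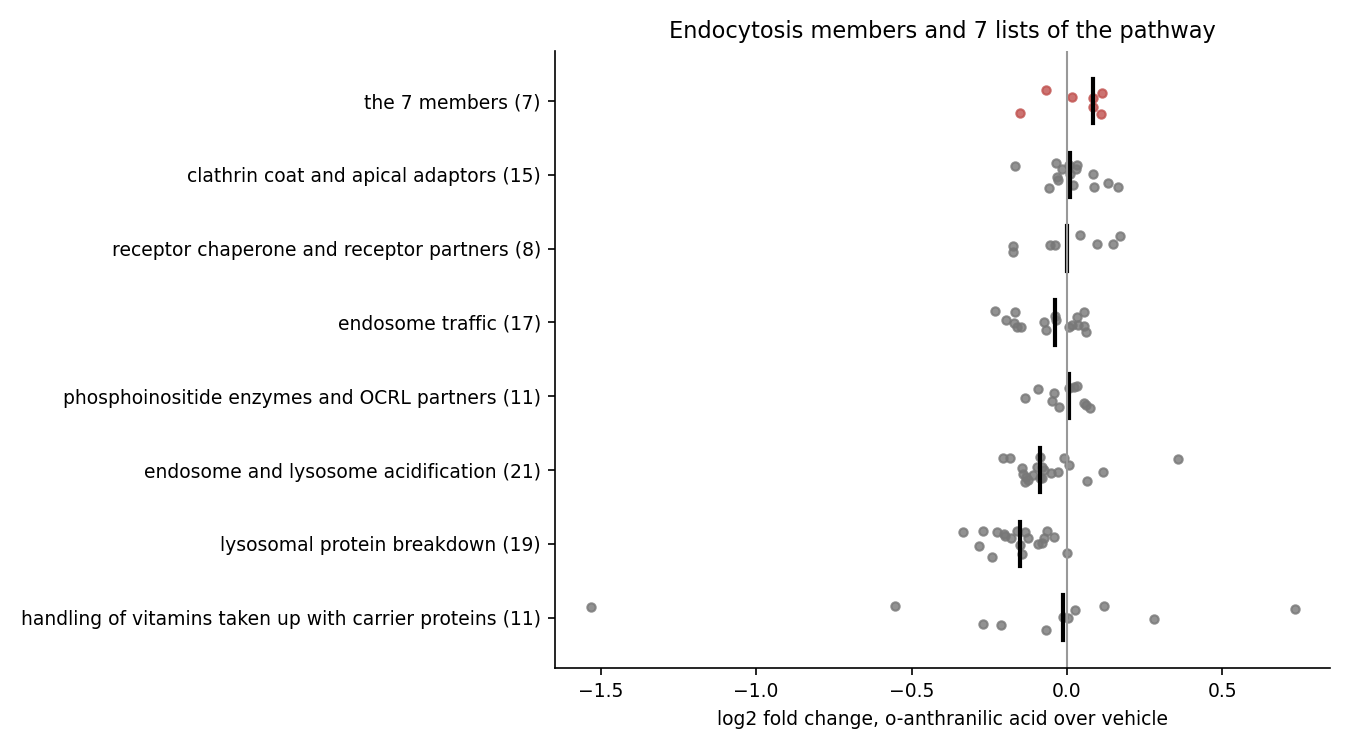
Log2 fold change of o-anthranilic acid over vehicle (horizontal axis) for the 7 members in red and the tested genes of 7 pathway lists in grey (number in brackets), with a black line at each median. The members have a median of 0.08, the lysosomal genes lie at or below 0 with a median of -0.15, and Cyp27b1 stands apart at -1.53.

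The last list held genes that handle vitamins taken up with their carrier proteins, the main nutrients recovered through megalin and cubilin. Its median over 11 tested genes was -0.01, and it was -0.12 without treated replicate 1 and 0.04 without treated replicate 3. The log2 fold changes ran from -1.53 to 0.73, with 5 genes above 0 and 6 below. Cyp27b1 (NM_053763), the enzyme that activates vitamin D from the form delivered by megalin, stood at -2.38, -1.18 and -0.998 in treated rats, against -0.02, 0.23 and -0.16 in vehicle rats. All treated values were the lower, with a log2 fold change of -1.53 ± 0.37 (SE, 0.346-fold) and a limma adjusted p of 0.476, so it did not pass. Without treated replicate 1 it was -1.10. Of the 9 genes at an unadjusted p under 0.05, Gla, a lysosomal galactosidase, at -0.27 ± 0.11, and Tcn2, the cobalamin carrier, at -0.27 ± 0.09, are named after their values were seen.

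Markers of the cell types that hold these genes were checked beside them. All 10 early and all 8 straight proximal tubule markers were well above background on all 6 arrays, as the label renal cortex requires, and all 8 podocyte markers were too. Early proximal tubule markers, of the segment with most of the uptake, had a mean of -0.10, 0.00 and -0.05 on the treated arrays, against 0.02, -0.05 and 0.03 on the vehicle arrays, relative to the vehicle mean. Podocytes also express megalin, cubilin and Fcgrt, and their markers stood at -0.23, -0.27 and -0.09 in treated rats, against -0.03, -0.12 and 0.15 in vehicle rats. Of the 8 podocyte markers, 7 had a log2 fold change below 0 and 1 above, with a median of -0.15. The lowest was Magi2 at -0.69, with a mean level of -5.26 in treated and -4.57 in vehicle rats. The straight segment markers had means of 0.47, 0.35 and 0.18 in treated rats, against 0.20, -0.23 and 0.02 in vehicle rats. Of these 8 markers, however, 4 had a log2 fold change above 0 and 4 below, with a median of 0.07. None of these markers passed, and their part in the values of the 7 genes was not tested.

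Likeness to the receptors was measured as the root mean square difference of the log2 signals, each centred on its own mean, over the 6 arrays and 11912 other named genes. Closest to Lrp2 were Champ1 at 0.014, Nup214 at 0.016 and Samd4b at 0.023. Closest to Cubn were Nedd4 at 0.032, Trappc10 at 0.033 and Npc1 at 0.033. None of the other 6 members was among the 3 closest to either receptor, but only 3 places were open among 11912 genes. This does not show whether the members varied together, and their own distances are not given.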

How the data were processed

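Cy3-labelled renal cortex RNA of 6 rats was hybridised to 1 array each, per the labels. The submitters' processing notes name Agilent Feature Extraction 10.7. Per the file headers, the scanner files hold intensity on a linear scale, background-subtracted and detrended, with no scaling between arrays. Set against the scanner files, each deposited value of the authors' own table was a linear ratio of this signal to the 75th percentile of its array, with genes not centred. The medians of its columns were 0.106, 0.104 and 0.103 for treated and 0.104, 0.106 and 0.103 for vehicle samples. Each column matched a scanner file of its group but of another replicate number, and replicates are named by scanner file.

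External controls (84 probes) and probes with outlier flags (47) were dropped from 61657 non-control probes. Of the 61526 used, RefSeq accessions named 27435. No coordinates are given, because the array design and the naming table (GRCr8) use different builds. Log2 signal minus the array's 75th percentile was compared with limma 3.58.1 (lmFit, eBayes) in R 4.3.3. Probes had to be well above background on 3 or more of the 6 arrays. The brightest kept probe stood for each gene, and all 41551 kept probes were also fitted singly. The number of arrays limits the precision. The fit was tested on simulated data with independent noise for each feature and planted fold changes larger than those of the members. That test therefore does not bear on differences of the members' size.

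The members and lists were chosen with earlier results of these data known. Named genes were all members, the 2 genes of each list with the smallest p (1 of them is not reported here), and the 3 genes closest to Lrp2 and to Cubn, and Ctsl was added after its value was seen. 3 older list symbols were updated through synonyms. Alternatives changed the background correction (normexp with offset 50, on median spot signals in place of mean ones), the scaling (quantile, median, percentile of detected probes, the authors' ratios), the filter, the handling of several probes per gene, the variance model and array weights. Replicate and slide blocks were also fitted, and each array was left out in turn.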

Additional observations from a re-analysis of the deposited data

How the results depend on the processing

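None of the 7 members passed under any of the 19 alternatives (133 values, adjusted p from 0.573 to 0.998), nor did any gene of the pathway lists. Lrp2 stood at -0.038 with the mean of its probes and ranged from -0.043 to 0.056 without 1 array, and Cubn from -0.0013 to 0.19. Of the probes tested singly, probe 2 of Clcn5 was -0.00032 with quantile normalisation, -0.0038 with array weights and -0.019 with the slide as a block. Without 1 array it ranged from -0.045 to 0.063, probe 2 of Dab2 from -0.0017 to 0.097 and probe 2 of Ocrl, well above background on 3 of 6 arrays, from -0.12 to 0.36. Some list medians moved by more than the spread between arrays. Endosome traffic was -0.069 with normexp, -0.090 with the mean of probes, -0.068 with every probe, and -0.070 to -0.014 without 1 array. Lysosomal protein breakdown was -0.18 with the mean of probes and with every probe, the receptor partners -0.054 with every probe, and acidification -0.11 to -0.049 without 1 array. Pip5k1c was -0.015 with normexp. In each case the cause was not tested. On the whole array 5 features passed with normexp, 1 with the filter of all 6 arrays, 2 with the mean of probes, 5 with the trend and robust variance model, 3 with the slide as a block, which is the fit without treated replicate 2, and 0 to 3 without 1 array (2 without treated replicate 1, 3 without treated replicate 2 and 3 without vehicle replicate 2), and none was a member. With the replicate block 0 passed and Amn had an adjusted p of 0.740. Arrays of the same number did not deviate together (r of 0.02, -0.04 and -0.02 over features). No pairing by number was thus seen, but so few arrays cannot exclude one.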
